A study of Mus musculus with 18 samples.

Results

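The 10 genes described here are components and targets of the Hippo-YAP pathway: Cyr61, Ctgf, Amotl2, Yap1, Wwtr1, Tead1, Tead2, Lats1, Lats2 and Vgll4. They were chosen by gene name in 4 tables of RNA-seq expression values from mouse brain, taking the entry with the highest mean where a name occurred more than once. The set was selected on a value measured in these data, since Cyr61 was sharply lower in Kdm2b cKO neurospheres. The neurosphere values are therefore given as a description, with no test. All 10 genes were found in each table, among 23138 named genes in the hippocampal table, 23398 in the neurosphere table and 54429 in each of the other 2. All 10 also passed the filter of a mean of at least 0.5 FPKM (fragments mapped to a gene, divided by its length and by the mapped fragments of the library), as did 13446, 12227, 15691 and 15764 genes of the hippocampal, neurosphere, cortical and Rnf2 tables.

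The study asked how KDM2B, a protein that brings a variant Polycomb repressive complex to unmethylated CpG islands through its CxxC zinc finger, acts in the developing mouse hippocampus. Conditional knockouts (cKO) of genotype Kdm2bEmx1-delta-CxxC carried the floxed CxxC exon of Kdm2b and Emx1-Cre, which recombines in the progenitors of the dorsal forebrain and their progeny, a lineage that does not include vessels, meninges or microglia. Controls (Ctrl) were Kdm2bfl/+ or Kdm2bfl/fl, so both groups carried floxed alleles. Whole hippocampus (3 Ctrl and 3 cKO libraries), neurospheres passaged in serum-free medium with FGF2 and EGF from hippocampal progenitors (2 and 2) and cortex (2 and 2) were compared. A further set compared hippocampus of Rnf2Emx1-cKO mice, which lose the gene for the Polycomb ubiquitin ligase RING1B by the same Cre, with Rnf2fl/+ or Rnf2fl/fl controls (2 and 2). Tissues were taken at postnatal day 0 and the neurospheres were started from hippocampi of that day. Neither the labels nor the methods used here say whether a library came from 1 animal or from several, so p-values measure only the spread between these libraries.

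In the Hippo pathway, the kinases LATS1 and LATS2 phosphorylate the coactivators YAP1 and TAZ (encoded by Wwtr1) and keep them out of the nucleus. In the nucleus the coactivators bind the TEAD factors, which contact DNA, and VGLL4 competes with them for TEAD. Cyr61 and Ctgf encode secreted matricellular proteins of the CCN family, and together with Amotl2, an angiomotin that binds YAP, are among the most widely used YAP targets. In the developing brain the pathway is known for its part in the growth of radial glia and other progenitors, and Yap1 and Wwtr1 are also active in vessels and meninges.

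The number of reads behind the values could be recovered for 2 tables only. FPKM multiplied by gene length gave whole reads, within 0.01 read, for 100% of the low values of the cortical and Rnf2 tables, with 1.85e+07 to 2.19e+07 recovered reads per cortical library and 1.47e+07 to 1.63e+07 per Rnf2 library. There, Cyr61 was counted with 212 to 264 reads in cortex and 67 to 149 in the Rnf2 set, Ctgf with 59 to 97 and 31 to 111, and the other 8 genes with 145 reads or more. For the hippocampal and neurosphere tables the counted reads could not be recovered. The methods state a sequencing depth per library, but not the reads counted for each. Neurosphere control 1 stood apart: 15.9% of its total FPKM lay in the single entry Mir6236 and its total was 855276 FPKM, against 452580 to 522964 in the other 3 neurosphere libraries. A further 29.3% of its FPKM lay in entries without a name, against 0.876% to 1.95% in those 3 libraries. The hippocampal marker Prox1 and the progenitor marker Nes fitted the labels, with Prox1 at 34.3 FPKM in control hippocampus against 1.19 FPKM in control cortex, and Nes at 91.8 FPKM in control neurospheres. The targeted genes could not check the genotypes, since the values cover whole genes and not the floxed part alone: Kdm2b was at 29.4 ± 2.15 FPKM in control and 27.2 ± 0.992 FPKM in cKO hippocampus (SD, n = 3 each), and Rnf2 was at 32.3 and 30.8 FPKM in the Rnf2 controls and 28.5 and 27.8 FPKM in the Rnf2 cKO libraries, with an adjusted p of 0.762 in limma.

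The genes lie on 6 autosomes of the GRCm38 build as the cortical table gives them. The targets are Cyr61 (chr3:145646976-145649981, minus strand), Ctgf (chr10:24595442-24598683, plus) and Amotl2 (chr9:102716672-102733418, plus). The coactivator genes are Yap1 (chr9:7931999-8004596, minus) and Wwtr1 (chr3:57455649-57575910, minus). Tead1 (chr7:112679318-112906807, plus), Tead2 (chr7:45215753-45233644, plus) and Vgll4 (chr6:114860628-114969994, minus) encode the TEAD side. The kinase genes are Lats1 (chr10:7681214-7716460, plus) and Lats2 (chr14:57689662-57758388, minus).

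Windows of 300 bases, from 250 bases before to 50 after a RefSeq start site on GRCm38.p6, were held for 8 of the 10 genes (10 windows). They were searched on both strands for the core of the TEAD binding motif, GGAATG, whose reverse complement is CATTCC. Of the 10 windows 7 held it, from 6 genes (Cyr61, Amotl2, Yap1, Wwtr1, Lats2 and Vgll4), against 4817 of 32851 windows of all genes (14.7%). The Wwtr1 windows overlap, so they share 1 match. A match is a description of the letters and not a bound site. The 250 bases before the start are shown for Cyr61 and Vgll4, which were both lower in cKO neurospheres, and for the coactivators Yap1 and Wwtr1. Each is given 5′ to 3′ along the gene with the motif in capitals. Only stretches that hold the motif are shown. The windows of Amotl2, lower in cKO neurospheres, and of Lats2 (first start site), higher there, held it as well. That of Tead2, also higher there, did not. No link between the motif and the direction of these differences was tested.
Cyr61, chr3:145649986-145650235 (- strand): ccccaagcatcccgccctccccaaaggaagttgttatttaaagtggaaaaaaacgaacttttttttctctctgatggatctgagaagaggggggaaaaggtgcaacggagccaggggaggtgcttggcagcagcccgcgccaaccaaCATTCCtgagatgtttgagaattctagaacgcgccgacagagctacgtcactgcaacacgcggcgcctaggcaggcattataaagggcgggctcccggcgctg
Vgll4, chr6:114969204-114969453 (- strand): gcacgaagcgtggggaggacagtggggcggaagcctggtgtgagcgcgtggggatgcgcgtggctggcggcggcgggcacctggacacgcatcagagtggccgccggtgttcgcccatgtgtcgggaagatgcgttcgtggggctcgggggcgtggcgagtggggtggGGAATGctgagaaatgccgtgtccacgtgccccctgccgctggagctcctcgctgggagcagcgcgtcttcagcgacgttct
Yap1, chr9:8004597-8004846 (- strand): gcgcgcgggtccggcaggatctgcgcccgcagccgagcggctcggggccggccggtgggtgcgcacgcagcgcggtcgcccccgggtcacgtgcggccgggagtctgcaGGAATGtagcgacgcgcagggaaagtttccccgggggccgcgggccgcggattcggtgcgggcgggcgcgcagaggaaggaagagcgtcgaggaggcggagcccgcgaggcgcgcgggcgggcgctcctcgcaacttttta
Wwtr1, chr3:57575911-57576160 (- strand): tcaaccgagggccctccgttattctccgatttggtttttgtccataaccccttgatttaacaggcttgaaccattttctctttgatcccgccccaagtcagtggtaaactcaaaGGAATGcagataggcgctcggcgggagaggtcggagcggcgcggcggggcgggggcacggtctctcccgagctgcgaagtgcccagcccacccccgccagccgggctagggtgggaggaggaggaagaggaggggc

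The matches began 103 bases before the start site of Cyr61, 82 before that of Vgll4, 141 before that of Yap1 and 136 before that of Wwtr1. In GENCODE M21 the Cyr61 and Wwtr1 stretches lay outside any annotated gene, and the Vgll4 stretch lay in an intron of a longer Vgll4 transcript. In the Yap1 stretch, 17 bases lay in an exon of another gene, Gm45494. In Amotl2 the motif began 65 bases before the start, and in Lats2 it lay 4 bases after the first of 2 start sites. Of the 250 bases before the Amotl2 start, 136 were annotated as Amotl2 exon. The windows of Tead2 and Lats1 did not hold these letters.

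**Figure D1:**
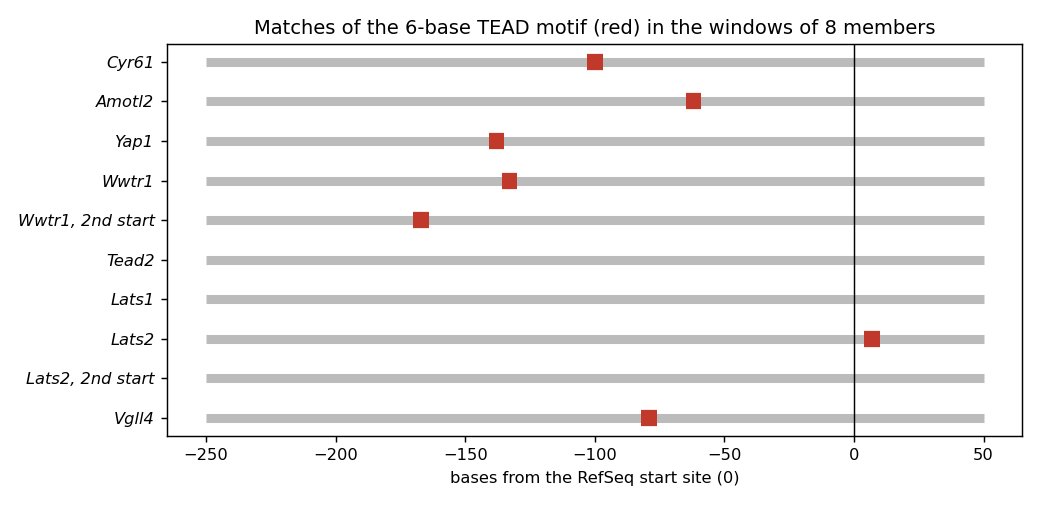
Positions of the 6-base TEAD motif (red) in the promoter windows of 8 genes (grey bars, 1 per RefSeq start site), with the distance from the start site in bases on the horizontal axis. The matches of Cyr61, Vgll4, Amotl2, Yap1 and Wwtr1 lie upstream of the start, between 65 and 170 bases, and that of Lats2 lies just inside the transcript.

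Levels of the 10 genes ran in a different order in each table, as the plot of FPKM by library shows. In control hippocampus Lats1, read in an entry joined with Nup43, had the highest level (20.4 ± 0.701 FPKM, SD, n = 3). Tead2 was next (15.9 ± 1.82), and the ranges of these 2 did not overlap. A separate entry for Lats1 alone was at 0.989 ± 0.125 FPKM, so the rank of Lats1 itself is not known there. Tead1, Amotl2, Vgll4, Wwtr1 and Lats2 followed between 8.82 and 11.8 FPKM, each overlapping its neighbour in the order. Yap1 was at 7.72 ± 0.314 FPKM, and the targets Ctgf (2.67 ± 0.276) and Cyr61 (1.75 ± 0.633) were lowest and overlapped. In control neurospheres Cyr61 and Tead2 stood elsewhere in the order. Cyr61 was the highest of the 10 at 119.5 ± 1.76 FPKM (SD, n = 2), followed by Vgll4 at 80.7 ± 0.0668 and Amotl2 at 29.3 ± 1.24, with no overlap between them. Tead2, second in the tissue, was at 2.51 ± 0.195 FPKM there and did not differ beyond its spread from Ctgf at 2.44 ± 1.21.

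In control cortex Amotl2 (17.0 ± 0.517 FPKM, SD, n = 2) and Tead2 (16.4 ± 1.16) were highest and overlapped, and Lats1 (13.0), Vgll4 (10.7) and Wwtr1 (6.78) followed without overlap. Cyr61 (5.59 ± 0.790) overlapped Tead1 (5.36 ± 0.493), Yap1 was at 2.18 ± 0.156, and Ctgf (1.08) and Lats2 (0.991) were lowest and overlapped. In the Rnf2 control hippocampi Lats1 (22.8 ± 1.12 FPKM, SD, n = 2) and Wwtr1 (16.2 ± 1.06) led, Tead1, Amotl2, Tead2 and Vgll4 followed between 6.43 and 8.82 FPKM, each overlapping the next, and Yap1 (3.57), Cyr61 (2.999), Lats2 (2.77) and Ctgf (1.69) closed the order without overlap. The tables were normalized separately, so levels are set side by side and were not tested between tables.

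**Figure D2:**
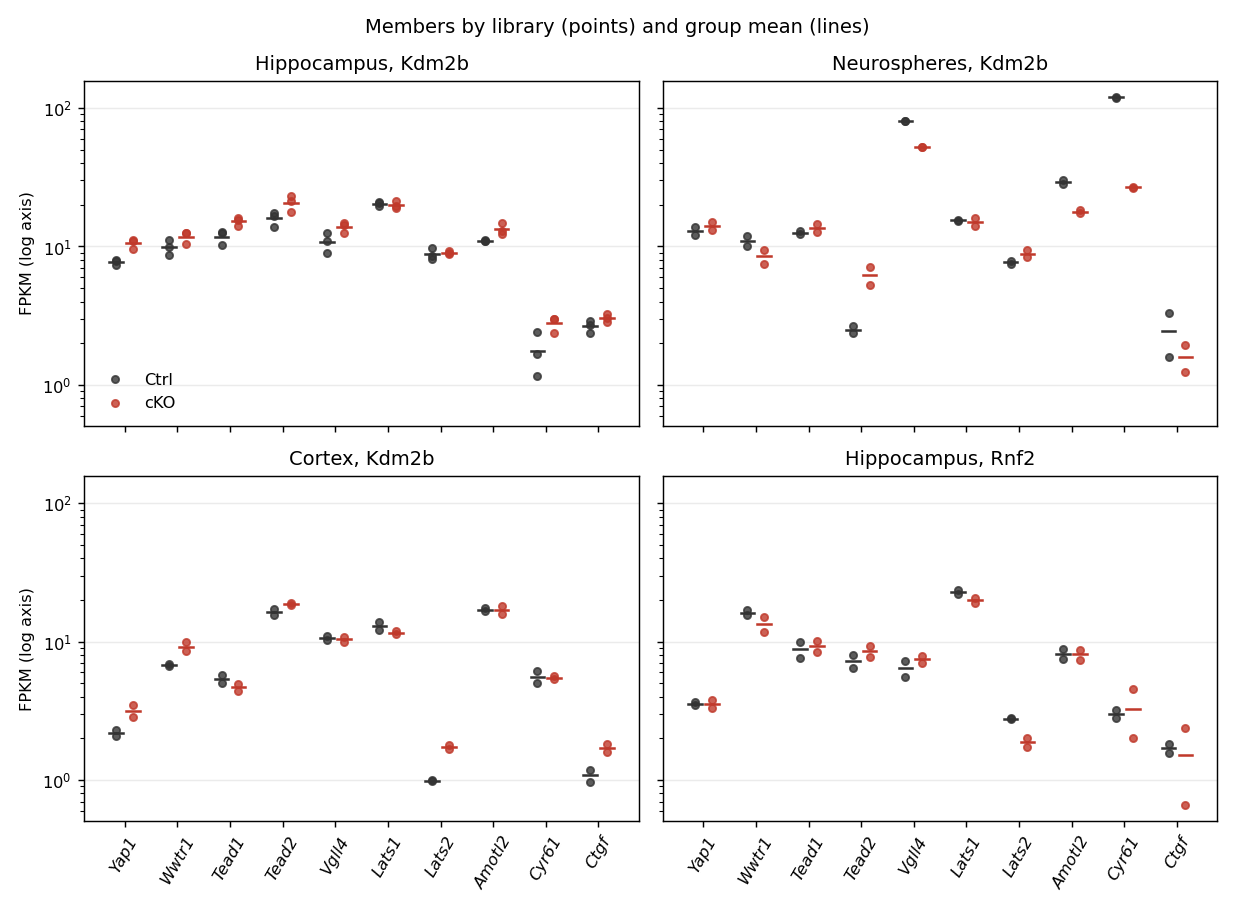
FPKM of the 10 genes by library on a log axis, with Ctrl libraries in black, cKO libraries in red and group means as lines, in 1 panel per table. Cyr61 is the highest gene in control neurospheres (119.5 FPKM) and among the lowest in control hippocampus (1.75 FPKM). The hippocampal Lats1 points are from an entry joined with Nup43.

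In the Kdm2b cKO hippocampus, Yap1 and Cyr61 rose by the thresholds the study used, a log2 fold change beyond 0.4 with an unadjusted p under 0.05, and none of the 10 genes fell. That is 2 of 10 called higher against 3.89% of the 13446 genes tested, and 0 of 10 called lower against 2.25%. Differences were taken on log2(FPKM + 1), which understates the change of genes at low FPKM, and tested with limma across all genes. At any fold, 6 of the 10 genes (Yap1, Cyr61, Tead1, Tead2, Vgll4 and Amotl2) had an unadjusted p under 0.05, against 23.0% of all genes, and 1 (Yap1) had an adjusted p under 0.05, against 8.27%. The median difference of the 10 genes was 0.30 and that of all genes tested was 0.01, with 9 of the 10 above 0. In bulk tissue, a change in the number of cells of a type and a change in RNA per cell cannot be told apart.

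Yap1, the coactivator, was at 7.95, 7.37 and 7.85 FPKM in the 3 control hippocampi and at 11.2, 10.98 and 9.54 FPKM in the 3 cKO hippocampi. All cKO libraries lay above all controls. The difference was 0.41 on the log2 scale (SE 0.0804, 95% interval 0.22 to 0.59, limma, adjusted p = 0.0181). Its size sat at the threshold of 0.4, and without control 2, cKO 1 or cKO 2 it was 0.38, 0.37 and 0.38 and no longer called. The adjusted p of Yap1 was above 0.05 with the replicate number as a block (limma, adjusted p = 0.0531) and in 5 of the 6 fits that left out 1 library, and lay between 0.0118 and 0.0748 over all alternatives. Wwtr1, which encodes the related coactivator TAZ, was at 11.2, 8.67 and 9.93 FPKM in controls and at 12.5, 12.4 and 10.4 FPKM in cKO libraries. These groups overlapped, and the difference of 0.23 did not pass the test (limma, adjusted p = 0.220). It was 0.14 without control 2 and at most 0.31 without other single libraries.

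Of the TEAD genes, Tead1 was at 12.7, 10.2 and 12.5 FPKM in controls and at 15.5, 16.1 and 14.0 FPKM in cKO hippocampi. The groups were apart, with a difference of 0.34 (SE 0.0915, limma, adjusted p = 0.0516) that stayed under the fold threshold. Tead2 was at 17.4, 13.9 and 16.5 FPKM in controls and at 23.1, 21.3 and 17.7 FPKM in cKO libraries, a difference of 0.35 (SE 0.107, limma, adjusted p = 0.0765), with cKO 3 only just above the highest control. Vgll4, the competitor of YAP1 for TEAD, was at 9.02, 11.03 and 12.4 FPKM in controls and at 14.3, 14.8 and 12.5 FPKM in cKO libraries. Its groups were apart by less than 0.1 FPKM, and the difference was 0.34 (SE 0.110, limma, adjusted p = 0.0995), or 0.22 without control 1 (limma, adjusted p = 0.260). Leaving out cKO 3 brought both Tead2 and Vgll4 past the thresholds and made the count 4 genes, leaving out control 1 added Tead2 alone, and leaving out control 3 added Vgll4 while Cyr61 was lost.

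Among the targets, Cyr61 was at 2.41, 1.67 and 1.15 FPKM in controls and at 2.98, 2.39 and 3.01 FPKM in cKO hippocampi. The groups overlapped, since control 1 lay above cKO 2. The difference was 0.49 (SE 0.166, 95% interval 0.11 to 0.86, limma, adjusted p = 0.111), and 0.32 without control 3, where the call was lost. Amotl2 was at 11.1, 10.9 and 10.9 FPKM in controls and at 12.3, 13.0 and 14.8 FPKM in cKO libraries, apart in all libraries but with a difference of 0.26 (SE 0.0763, limma, adjusted p = 0.0707), under the fold threshold. Ctgf was at 2.72, 2.37 and 2.92 FPKM in controls and at 3.27, 3.05 and 2.83 FPKM in cKO libraries, a difference of 0.14 that did not pass the test (limma, adjusted p = 0.455) and was 0.084 without control 2.

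The kinase genes gave no difference that passed. Lats2 was at 8.17, 9.80 and 8.49 FPKM in controls and at 9.24, 8.83 and 8.94 FPKM in cKO hippocampi, a difference of 0.03 with a 95% interval from -0.15 to 0.21. Lats1 was read in an entry that joins it with the neighbouring gene Nup43, whose reads cannot be told apart there, at 19.6, 20.7 and 20.9 FPKM in controls and at 19.5, 18.9 and 21.3 FPKM in cKO libraries. The difference was -0.03, with an interval from -0.17 to 0.10. A separate entry for Lats1 alone, at 0.989 ± 0.125 FPKM in controls and at 1.14 ± 0.0378 FPKM in cKO libraries (SD, n = 3 each), differed by 0.11 (limma, adjusted p = 0.607).

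In 5 of the 10 genes (Amotl2, Yap1, Tead1, Tead2 and Vgll4) all 3 cKO hippocampi lay above all 3 controls, against 14.9% of all genes tested. Progenitor markers moved with them. Of 9 listed, 8 were above 0 and 5 were called higher (Nes, Pax6, Vim, Hes1 and Eomes), the median difference was 0.50, and Nes, the intermediate filament of neural progenitors, went from 14.2 to 16.3 FPKM in controls to 18.1 to 25.4 FPKM in cKO libraries. The summed level of this list, in which Fabp7 has most of the FPKM, was 1007 to 1094 FPKM in controls and at 1038 to 1167 FPKM in cKO libraries. Microglial markers were above 0 in 7 of 8, with 4 called higher and sums of 58.1 to 68.0 against 76.6 to 96.1 FPKM, and neuronal markers were below 0 in 8 of 10, with 1 called lower. Choroid plexus markers summed to 5.87 to 17.4 FPKM in controls and to 61.6, 43.5 and 8.06 FPKM in cKO 1, 2 and 3, with Ttr, the defining transcript, at 56.0, 37.9 and 5.29 FPKM. Of 11 immediate early genes past the filter 9 were above 0 and 3 were called higher, with sums of 53.4 to 60.3 FPKM against 67.5 to 84.1 FPKM. The endothelial and meningeal lists had no gene called, with median differences of -0.03 and -0.19. The part of these genes and cell types in the differences of the 10 genes was not tested.

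In the rest of the pathway, 21 of 25 listed kinases, adaptors, junction proteins and other TEAD and VGLL genes passed the filter in the hippocampus. Of these 2 were called higher and 0 lower, with a median difference of 0.09. Tead3, a further TEAD factor, was at 4.08, 3.79 and 4.86 FPKM in controls and at 7.14, 7.18 and 6.72 FPKM in cKO libraries (difference 0.62, SE 0.0965, limma, adjusted p = 0.00780). Ajuba, a LIM protein that binds LATS kinases, was at 2.44, 2.06 and 2.19 FPKM in controls and at 3.39, 3.56 and 3.06 FPKM in cKO libraries (difference 0.43, limma, adjusted p = 0.0339). Both were apart in all libraries. Of 16 further YAP targets that passed the filter, 1 was called higher and 1 lower, with 8 above and 8 below 0 and a median of -0.01. Ccdc80, an extracellular matrix protein, rose (difference 0.52, limma, adjusted p = 0.0213), while F3, which encodes tissue factor, fell from 2.43 to 3.94 FPKM in controls to 1.80 to 1.94 FPKM in cKO libraries (difference -0.54, limma, adjusted p = 0.0435). Nov, another CCN gene and the only one of 3 others to pass the filter, was called lower (difference -0.65, limma, adjusted p = 0.132) with overlapping groups.

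**Figure D3:**
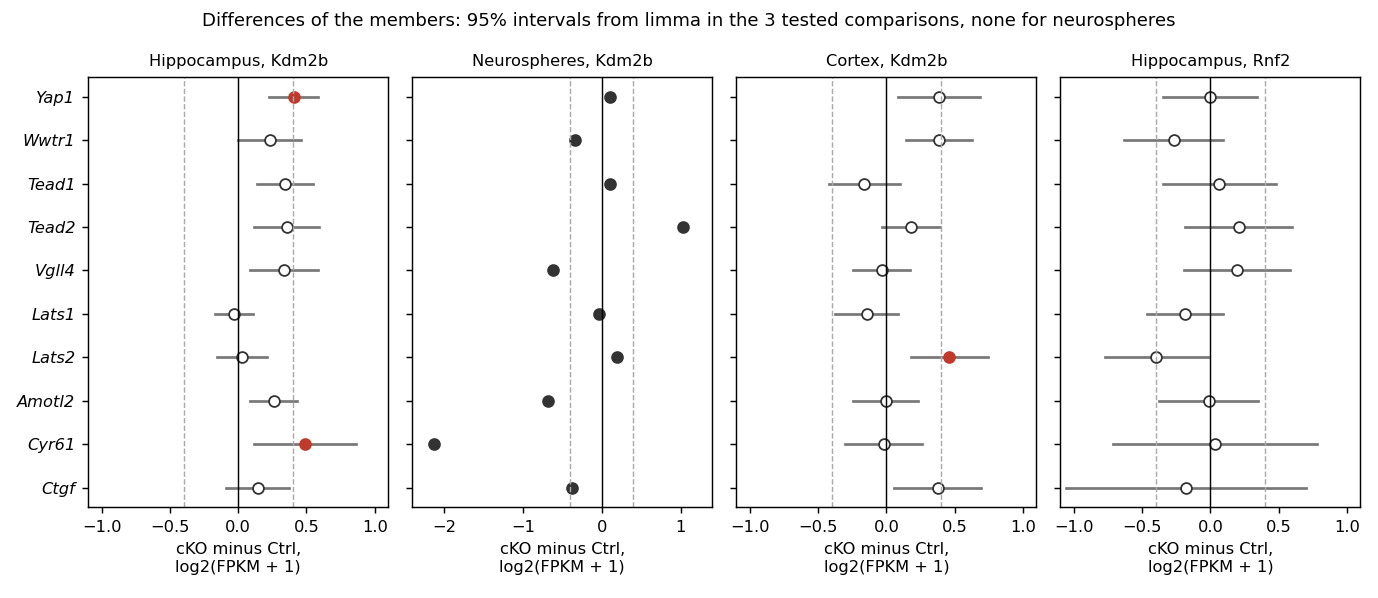
Difference of each of the 10 genes between cKO and Ctrl on log2(FPKM + 1), with 95% limma intervals in the 3 tested comparisons and points alone for neurospheres, which chose the genes. Red points passed the thresholds, dashed lines mark 0.4 and -0.4, and the neurosphere panel has a wider axis: Yap1 and Cyr61 are red in hippocampus and Lats2 in cortex.

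In Kdm2b cKO neurospheres, cultures grown from hippocampal progenitors, Cyr61 was 4.47-fold lower. It stood at 120.7 and 118.3 FPKM in the controls and 26.4 and 27.1 FPKM in the cKO libraries, a difference of -2.12 on the log2 scale, and 44 of the 12227 genes past the filter had a lower one. Amotl2 and Vgll4 were lower as well and Tead2 was higher. These values chose or share the contrast that chose the genes, so no test is given. Differences beyond 0.4 with the groups apart were found for 1 of the 10 genes upward and 3 downward, beside 12.2% and 14.2% of all genes, and the medians were -0.19 for the 10 genes and -0.01 for all.

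Amotl2 was at 28.4 and 30.1 FPKM in control neurospheres and 18.2 and 17.4 FPKM in cKO neurospheres, a difference of -0.69. Vgll4 was at 80.8 and 80.7 FPKM in controls and at 52.0 and 52.7 FPKM in cKO libraries, a difference of -0.62. Both genes were apart by far more than the gap between libraries of a group. Tead2 went the other way, from 2.37 and 2.64 FPKM in controls to 5.29 and 7.14 FPKM in cKO libraries, a difference of 1.03.

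The second CCN target did not share the pattern of Cyr61 clearly. Ctgf was at 1.58 and 3.29 FPKM in controls and at 1.96 and 1.24 FPKM in cKO neurospheres, with overlapping groups and a difference of -0.37, which was -0.74 without control 1 and -0.0033 without control 2. Wwtr1 was at 10.1 and 11.8 FPKM in controls and at 7.46 and 9.49 FPKM in cKO libraries (difference -0.34, groups apart), and Lats2 at 7.88 and 7.45 against 9.41 and 8.35 FPKM (difference 0.19, groups apart). Yap1 (13.9 and 12.2 against 13.1 and 14.9 FPKM), Tead1 (12.2 and 12.9 against 14.5 and 12.7 FPKM) and Lats1 (15.5 and 15.4 against 16.0 and 14.1 FPKM) overlapped between groups, with differences of 0.10, 0.10 and -0.04. Without single libraries these differences ran from -0.50 to -0.19 for Wwtr1 (the smallest without cKO 1), from 0.11 (without cKO 1) to 0.27 for Lats2, from 0.012 to 0.19 for Yap1 and from 0.013 to 0.19 for Tead1. That of Lats1 was -0.13 without cKO 1 and turned to 0.049 without cKO 2. It also turned to 0.07 when libraries were scaled to the same FPKM total, a step that moved the median of all genes from -0.01 to 0.09. Lats1 had 2 entries in the neurosphere table. Its values here are from the entry with the higher mean, named Lats1 alone, unlike the joined entry used in hippocampus.

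**Figure D4:**
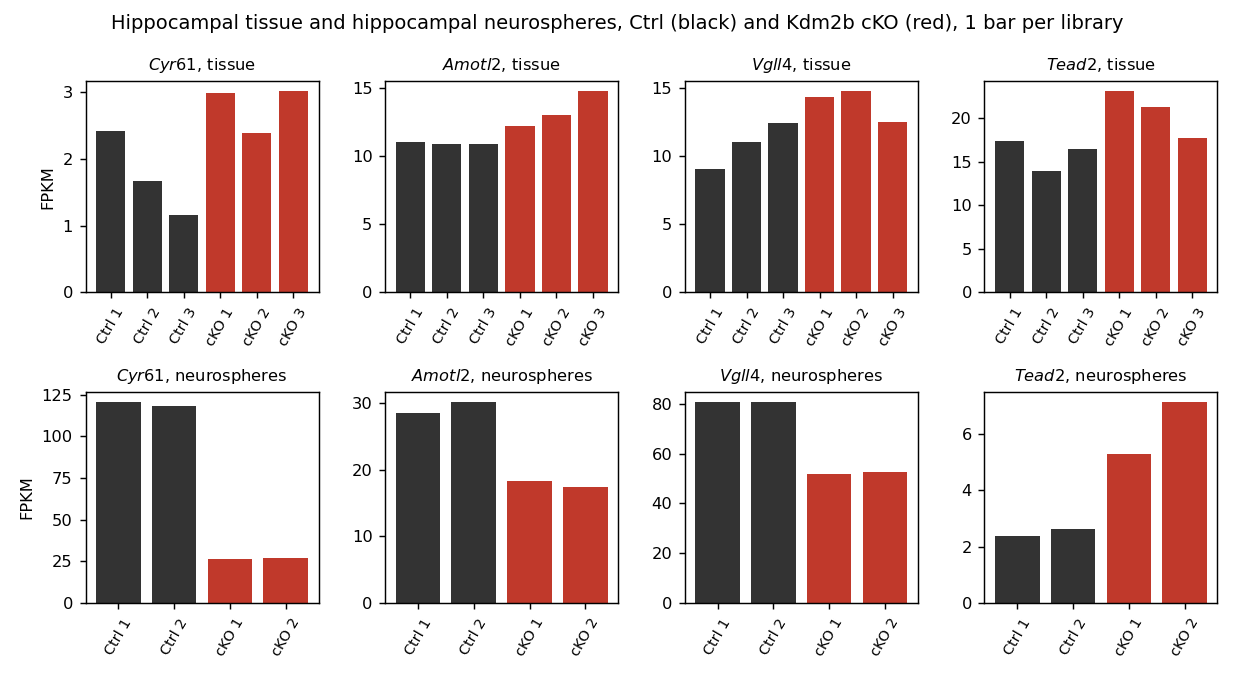
FPKM of Cyr61, Amotl2, Vgll4 and Tead2 in each library of hippocampal tissue (upper row) and hippocampal neurospheres (lower row), with Ctrl in black and Kdm2b cKO in red and each vertical axis starting at 0. Cyr61, Amotl2 and Vgll4 are lower in both cKO neurosphere libraries, where Cyr61 is near 27 FPKM, and Tead2 lies higher in every cKO library of both settings.

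Other gene groups differed in the same neurospheres. All 14 immediate early genes, among which Cyr61 is often counted because serum and growth factors induce it quickly, lay below 0, and 12 were beyond -0.4 with groups apart. Their summed level was 3077 and 2999 FPKM in controls and at 1313 and 1427 FPKM in cKO libraries, with Fos at 740.2 and 661.4 against 186.5 and 207.7 FPKM. All 10 astrocyte markers lay below 0 and 9 were beyond -0.4 with groups apart, with sums of 1064 and 991.0 FPKM against 590.2 and 549.7 FPKM and Gja1, a gap junction gene of astrocytes, at 96.3 and 78.5 against 6.07 and 3.46 FPKM. Of 8 oligodendrocyte lineage markers, 6 were beyond -0.4 with groups apart and the median was -1.45. The summed level of this list, in which Olig1 has most of the FPKM, was 2585 and 2533 against 2523 and 2460 FPKM. Progenitor markers split, with 2 of 8 past the filter (Nes and Vim) higher and 2 (Hes1 and Hes5) lower by the same measure, and sums of 4183 and 3761 FPKM in controls and 5186.5 and 7045 FPKM in cKO libraries. Of 7 neuronal markers past the filter, 3 were lower and 1 was higher. Choroid plexus markers summed to 1.00 and 1.11 FPKM in controls and to 10.49 and 12.96 FPKM in cKO libraries, most of it Otx2, with the defining Ttr at 0 and 0.2502 against 3.06 and 0 FPKM. Endothelial markers were nearly absent, with 1 of 9 past the filter and sums from 4.94 to 5.86 FPKM over the 4 libraries, and 1 of 10 meningeal markers passed the filter. Of 8 mural markers 3 passed it, with sums from 12.4 to 17.1 FPKM. Of 8 microglial markers 1 passed it, with sums from 20.9 to 26.0 FPKM. The part of growth factor response or of these cell types in the Cyr61 difference and in those of the other 9 genes was not tested.

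Of the rest of the pathway in neurospheres, 1 of 21 genes past the filter differed by more than 0.4 with groups apart: Wwc1, which encodes the LATS activator KIBRA, at 18.8 and 17.4 FPKM in controls and at 30.1 and 38.0 FPKM in cKO libraries (difference 0.87). Of 13 further YAP targets past the filter, 6 were lower and 4 higher by that measure, with a median of -0.21. The lower ones included the receptor kinase gene Axl (6.003 and 4.89 against 1.201 and 1.22 FPKM, difference -1.54), Tgfb2 (-1.12), F3 (-1.06) and Gadd45a (-0.93), and the higher ones were the kinase gene Nuak2 (0.97), Nt5e (0.55), Igfbp3 (0.50) and Fjx1 (0.50).

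The genes whose values followed Cyr61 most closely over all 18 libraries, each table centred on its control mean, were Prokr1 (r = 0.962), Cdc37l1 (r = 0.960) and Socs3 (r = 0.956), of 9604 genes past the filter in all tables. Prokr1 encodes a prokineticin receptor, and Socs3 encodes a feedback inhibitor of cytokine signalling that is itself quickly induced. The points share 4 tables, and the neurosphere difference sets most of the range: Prokr1 differed by -1.07 there and by 0.11 or less elsewhere. Amotl2 was at rank 10 (r = 0.943) and Vgll4 at rank 396 (r = 0.829). Wwtr1 (0.603), Ctgf (0.539), Yap1 (0.162), Tead1 (0.152), Lats2 (-0.272) and Tead2 (-0.685) followed Cyr61 less or ran opposite. The neurosphere difference of Cyr61 also chose the genes, so these ranks are a description only.

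In the Kdm2b cKO cortex, Lats2 was the 1 gene of the 10 that rose, against 4.73% of 15691 genes tested that were called higher, and 0 of 10 fell, against 2.28% called lower. It was at 1.00 and 0.979 FPKM in controls and at 1.80 and 1.69 FPKM in cKO libraries, from 145 to 246 reads. The groups were apart, with a difference of 0.46 (SE 0.110, limma, adjusted p = 0.209). Over the alternatives run, its adjusted p lay between 0.0231, with limma-voom on the recovered reads, and 0.638. At any fold 4 of the 10 genes (Lats2, Wwtr1, Yap1 and Ctgf) had an unadjusted p under 0.05, against 12.8% of all genes, and 0 had an adjusted p under 0.05 in limma, against 0.427%. The median was 0.09 for the 10 genes and -0.01 for all, with 5 above and 5 below 0.

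Both coactivator genes were higher in both cKO cortices with a difference just under the threshold of 0.4. Yap1 was at 2.29 and 2.07 FPKM in controls and at 3.49 and 2.86 FPKM in cKO libraries (difference 0.39, limma, adjusted p = 0.286), and Wwtr1 at 6.68 and 6.89 against 9.87 and 8.54 FPKM (difference 0.39, limma, adjusted p = 0.213). Ctgf was at 1.19 and 0.970 FPKM in controls and at 1.58 and 1.81 FPKM in cKO libraries (difference 0.38, limma, adjusted p = 0.318). The 3 genes passed both thresholds with a pseudocount of 0.1 and with limma-voom on the recovered reads, which made the count 4 of 10. Leaving out control 1 gave 3 genes (Ctgf, Yap1, Lats2), leaving out control 2 gave 2 (Wwtr1, Lats2) and leaving out cKO 2 gave 3 (Yap1, Wwtr1, Lats2).

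The genes that were lower in cKO neurospheres showed no difference in cortex that passed the test. Cyr61 was at 5.03 and 6.15 FPKM in controls and at 5.35 and 5.62 FPKM in cKO cortices, a difference of -0.02 with a 95% interval from -0.30 to 0.26. Amotl2 was at 17.4 and 16.6 against 18.1 and 15.8 FPKM (difference -0.0057, interval -0.24 to 0.23), and Vgll4 at 10.4 and 10.97 against 10.8 and 9.99 FPKM (difference -0.03, interval -0.24 to 0.17). All 3 overlapped between groups, and the sign of each turned when single libraries were left out. Tead2 was at 17.3 and 15.6 FPKM in controls and at 19.1 and 18.4 FPKM in cKO libraries (difference 0.18, limma, adjusted p = 0.467). Tead1 (5.01 and 5.71 against 4.96 and 4.41 FPKM, difference -0.16) and Lats1 (12.1 and 13.8 against 11.9 and 11.4 FPKM, difference -0.14) were lower in both cKO libraries, with adjusted p of 0.587 for each in limma. Without control 2, the differences of Tead2, Tead1 and Lats1 were 0.11, -0.082 and -0.057.

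Markers of meninges, vessels and microglia moved with the cortical groups. All 10 meningeal markers were called higher, with sums of 1.55 and 2.72 FPKM in controls and at 46.1 and 28.9 FPKM in cKO libraries, and Col1a1, a fibroblast collagen, went from 0.104 and 0.323 to 5.29 and 2.43 FPKM. All 9 endothelial markers were above 0 and 3 were called higher (Cdh5, Cldn5 and Tek), with sums of 42.5 and 41.0 against 65.6 and 64.0 FPKM, and all 5 mural markers past the filter were above 0. Microglial markers were above 0 in 7 of 8, with 3 called higher (Csf1r, C1qa and C1qb) and sums of 22.1 and 20.5 FPKM in controls against 35.9 and 29.8 FPKM in cKO libraries. Lats2, Wwtr1, Yap1 and Ctgf were higher in the same 2 libraries, and the part of meninges, vessels and microglia in their differences was not tested. In the rest of the pathway 0 of 21 genes were called in limma, and 2 (Wwc2 and Ajuba, at 0.32 and 0.31) had an unadjusted p under 0.05. Of 13 further YAP targets F3 (difference 0.40, limma, adjusted p = 0.370) and Gadd45a (0.57, limma, adjusted p = 0.324) were called higher, with a median of -0.04, and the CCN gene Nov rose from 0.870 and 0.771 to 2.80 and 4.19 FPKM (difference 1.29, limma, adjusted p = 0.0925).

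In the Rnf2 cKO hippocampus, 0 of the 10 genes were called, against 2.86% of 15764 genes called higher and 1.85% called lower. At any fold 1 of 10 (Lats2) had an unadjusted p under 0.05 in limma, against 7.11% of all genes, and no gene of the table had an adjusted p under 0.05 (0%). Lats2 was at 2.80 and 2.75 FPKM in controls and at 2.01 and 1.73 FPKM in cKO libraries. Its groups were apart, with a difference of -0.40 (95% interval -0.77 to -0.02, limma, adjusted p = 0.689) just short of the threshold, and it was called with a pseudocount of 0.1 and with limma-voom on the recovered reads (-0.57). The median was -0.0070 for the 10 genes and -0.00024 for all.

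The 2 Rnf2 cKO libraries differed from each other in the CCN targets by more than the controls did. Cyr61 was at 2.81 and 3.18 FPKM in controls and at 2.01 and 4.56 FPKM in cKO libraries (difference 0.03, interval -0.71 to 0.78), and Ctgf at 1.57 and 1.82 against 0.656 and 2.40 FPKM (difference -0.18, interval -1.06 to 0.70). Without cKO 2, Ctgf was called lower at -0.70. Wwtr1 was lower in both cKO libraries (15.5 and 17.0 against 11.8 and 14.9 FPKM, difference -0.27, interval -0.63 to 0.10, and -0.43 to -0.11 without single libraries, the smallest without cKO 1), as was Lats1 (22.0 and 23.6 against 20.8 and 19.1 FPKM, difference -0.19, interval -0.46 to 0.09).

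The other 5 genes overlapped between the Rnf2 groups. Yap1 was at 3.47 and 3.67 FPKM in controls and at 3.798 and 3.34 FPKM in cKO libraries (difference -0.00076, interval -0.34 to 0.34). Tead2 was at 6.46 and 8.05 against 7.75 and 9.31 FPKM (difference 0.21, interval -0.18 to 0.60), Vgll4 at 5.59 and 7.27 against 7.05 and 7.86 FPKM (0.19, interval -0.19 to 0.58), Tead1 at 7.62 and 10.01 against 8.44 and 10.03 FPKM (0.07, interval -0.35 to 0.48) and Amotl2 at 7.47 and 8.86 against 7.39 and 8.78 FPKM (-0.01, interval -0.38 to 0.35). Single libraries set much of these values. Without control 1, Tead2 differed by 0.069, Vgll4 by 0.031 and Tead1 by -0.11, and without control 2 by 0.35, 0.36 and 0.24. The intervals of Tead1, Tead2, Vgll4, Cyr61 and Ctgf hold 0.41, the size of the Yap1 difference in Kdm2b cKO hippocampus. Those of the remaining genes do not, and the interval of Yap1 itself ends at 0.34. The tables were normalized separately, and the same fold gives a smaller difference on log2(FPKM + 1) at a lower level. Yap1 was at 3.57 FPKM in the Rnf2 controls and at 7.72 FPKM in the Kdm2b hippocampal controls. Its interval thus does not settle whether Yap1 rose by a like fold in the Rnf2 set. Meningeal markers were below 0 in 8 of 9, with 5 called lower and sums of 43.9 and 42.9 FPKM in controls against 20.3 and 29.6 FPKM in cKO libraries, and choroid plexus markers summed to 51.7 and 13.4 FPKM against 245.0 and 8.96 FPKM. All 9 endothelial markers were below 0, with 0 called and sums of 88.0 and 68.1 FPKM in controls against 68.0 and 60.4 FPKM. Microglial markers were below 0 in 7 of 8, with 0 called and overlapping sums (70.6 and 42.8 against 47.5 and 39.5 FPKM). The part of these cell types in the values of Wwtr1, Lats2 and Ctgf was not tested. None of the 21 further pathway genes, 13 further targets or the CCN gene Nov was called in limma in this table.

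**Figure D5:**
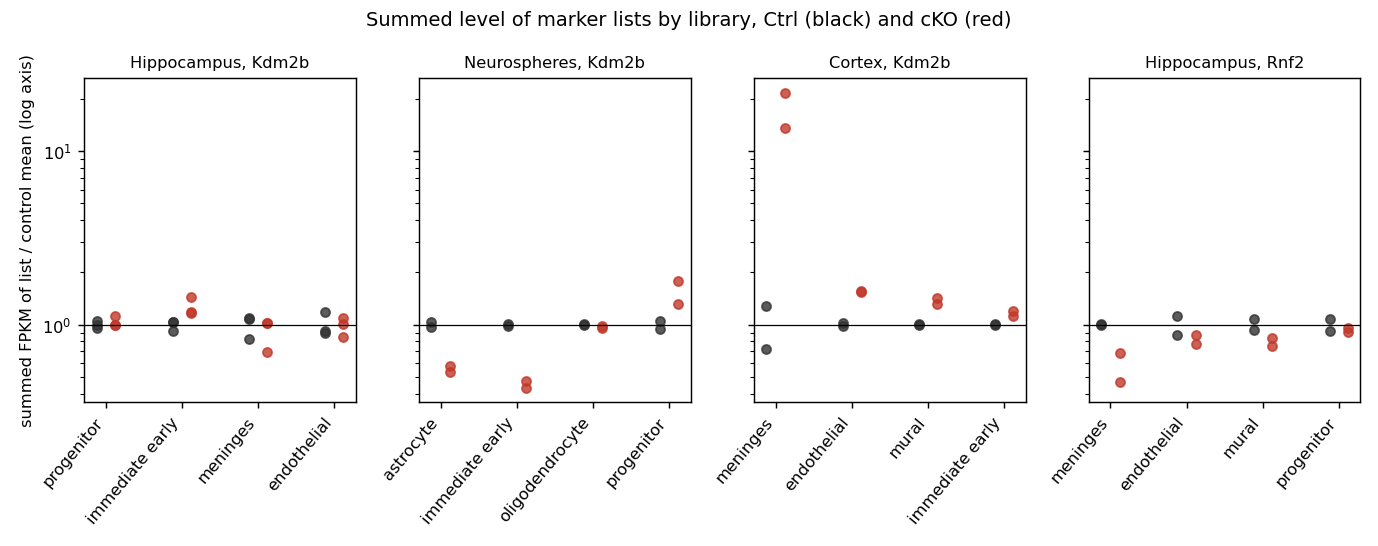
Summed FPKM of marker lists in each library, divided by the mean of the controls of its table, on a log axis, with Ctrl in black and cKO in red. The meningeal list is raised in both cKO cortices (46.1 and 28.9 FPKM against 1.55 and 2.72 FPKM), and the astrocyte and immediate early lists are lower in both cKO neurosphere libraries.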

How the data were processed

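RNA-seq libraries of mouse hippocampus, hippocampal neurospheres and cortex at postnatal day 0 were grouped by the labels. The authors deposited FPKM values in 4 tables, 1 per comparison. For hippocampus and neurospheres, the methods and the submitters' processing notes name cutadapt, STAR alignment to mm10 and Cufflinks 2.2.1, and DESeq2 on counts that were not used here. How the cortical and Rnf2 tables were counted is not given in the sources used here. Whether counting used strand is not given either. Entries without a name were left out (2861 in the hippocampal, 2059 in the neurosphere and 140 in the cortical table), and the entry with the highest mean stood for a repeated name.

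Each table was analysed alone. Genes with a mean of 0.5 FPKM or more were fitted on log2(FPKM + 1) with limma 3.58.1 (empirical Bayes with a trend, R 4.3.3), and p-values were adjusted by Benjamini-Hochberg over all genes tested. A gene was called at a log2 fold change beyond 0.4 with an unadjusted p under 0.05, the thresholds of the study. The fits were tested on simulated data. Intervals are 95% intervals from limma. No interval for counting error is given, since the counted reads of 2 tables could not be recovered. Libraries of a group correlated at 0.968 to 0.992.

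The genes, gene lists and marker lists were chosen with earlier results of these data known. Named outside the 10 genes were the targeted genes, the called genes of 3 pathway lists (at most 4 per direction and list), the 3 genes most correlated with Cyr61, and leading markers. Wwc2, Ring1 and the further markers named (Pax6, Hes1, Eomes, Fabp7, Tek) were picked after their values were seen. Alternatives were the pseudocount, the filter, the scaling, the trend, the threshold, a replicate block, summed entries, recovered reads and leaving out each library. A rescaling without Mir6236 was chosen after seeing the data. RefSeq windows were matched by symbol, and GENCODE M21 gave the annotation.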

Additional observations from a re-analysis of the deposited data

Results flagged for a closer look

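In 4 of the 10 genes every cKO library of one setting lay above its controls and every cKO library of another lay below them, in the comparison of Kdm2b cKO with control. Amotl2 differed by 0.26 in hippocampus and by -0.69 in neurospheres, on the log2(FPKM + 1) scale. Vgll4 differed by 0.34 in hippocampus and by -0.62 in neurospheres. Tead1 differed by 0.34 in hippocampus and by -0.16 in cortex, and Wwtr1 by -0.34 in neurospheres and by 0.39 in cortex. None of the hippocampal and cortical differences named here had an adjusted p under 0.05 in limma, and that of Tead1 in cortex was 0.587. The share of all genes with such opposite directions was not counted, so the count is not read as a trait of these genes. These differences between settings were not tested, since the tables were normalized separately and the neurosphere values chose the genes. Cyr61 also had opposite signs in tissue and neurospheres (0.49 and -2.12), but its hippocampal groups overlapped.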

How the results depend on the processing

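In Kdm2b cKO hippocampus 2 of the 10 genes were called, and 1 to 4 when single libraries were left out. With an adjusted p under 0.05 the count was 1 (Yap1) and without a fold threshold 6. Cyr61 was called in 14 of 16 alternatives and Yap1 in 13 of 16. In cortex the count of 1 became 4 with a pseudocount of 0.1, with limma-voom on recovered reads and without a fold threshold, 0 with an adjusted p under 0.05, and 1 to 3 without single libraries. In the Rnf2 set the count of 0 became 1 under the same first 3 settings, and 0 to 1 without single libraries. Cyr61 in neurospheres, at -2.12, was -2.16 with a pseudocount of 0.1, -2.00 at the same FPKM total, -2.17 at the same total without Mir6236, and -2.14 to -2.10 without single libraries.

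Signs turned for differences near 0. Without single libraries, Lats2 in hippocampus ranged from -0.017 to 0.10. In cortex Cyr61 ranged from -0.14 to 0.10, Amotl2 from -0.10 to 0.090 and Vgll4 from -0.085 to 0.019. In the Rnf2 set Cyr61 ranged from -0.41 to 0.48, Ctgf from -0.70 to 0.34, Tead1 from -0.11 to 0.24, Amotl2 from -0.12 to 0.10 and Yap1 from -0.074 to 0.072, and Yap1 was 0.00050 at the same FPKM total. In neurospheres Lats1 ranged from -0.13 to 0.049 and was 0.075 at the same FPKM total. The cause was not tested.

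Over all genes, an adjusted p under 0.05 left 198 genes called lower in hippocampus (303), 58 higher and 9 lower in cortex (742 and 358) and 0 in the Rnf2 set (451 and 291). Without a fold threshold, 1537 were higher and 1553 lower in hippocampus (523 and 303), 1212 and 801 in cortex, and 692 higher in the Rnf2 set. Leaving out single libraries gave 488 to 590 higher and 305 to 354 lower in hippocampus, 677 to 1226 (the highest without control 1) and 338 to 468 in cortex, and 278 to 808 and 190 to 772 in the Rnf2 set (both highest without control 2, and both lowest without cKO 2). Limma-voom on recovered reads called 1047 higher and 412 lower in cortex and 402 and 354 in the Rnf2 set. With 2 libraries a group, leaving one out assumes that the lone library varies like the other group.

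Groups share replicate numbers, but no label says that a number marks a shared animal or day. Deviations of same-numbered libraries correlated at -0.10 to 0.05 in hippocampus, -0.28 in neurospheres, -0.05 in cortex and 0.16 in the Rnf2 set. With the replicate block 2, 1 and 0 of the 10 genes were called in hippocampus, cortex and the Rnf2 set, the same counts as without it, while the adjusted p of Yap1 in hippocampus went from 0.0181 to 0.0531 in limma. Over all genes, the replicate block gave 437 called lower in the Rnf2 set, against 291 without it. No paired or crossed fit was made in neurospheres because no test is given there.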

Other observations

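The promoter windows held for 8 of the 10 genes mostly had more CpG, the sequence that CxxC zinc fingers recognise, than the median window. Counts ran from 4 to 49 CpG per 300 bases, against a median of 7 over all windows, and GC content from 42.7 to 74% against a median of 52.7%. Yap1 had the highest count (49), followed by Lats1 (42), the first window of Lats2 (37) and Vgll4 (34), and the second window of Lats2 had the lowest (4). Cyr61 had 20, the same count as the first window of Wwtr1, and Tead2 had 13. Of all windows, 73.5% had fewer CpG than that of Cyr61 and 62.1% fewer than that of Tead2. Binding of KDM2B to these windows was not examined.

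Ring1, which encodes RING1A, the paralogue of RING1B, was at 3.94 and 4.12 FPKM in the Rnf2 control hippocampi and at 4.52 and 6.63 FPKM in the Rnf2 cKO hippocampi (log2 difference 0.37, limma, adjusted p = 0.731). Its entry in the neurosphere table is joined with Mir219a-1 and stood at 16.1 and 16.0 FPKM in controls and at 10.5 FPKM in both cKO libraries. In Kdm2b cKO hippocampus, also read in the joined entry, the groups overlapped (difference 0.10, limma, adjusted p = 0.441). They overlapped in cortex as well (difference -0.07, limma, adjusted p = 0.879).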
